A study of Sus scrofa with 9 samples.

Results

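Transcription factors of the neural crest and of the jaw mesenchyme derived from it were examined in developing tooth germs of the miniature pig. The group comprised 9 genes, chosen by symbol: TWIST1, TWIST2, PRRX1, PRRX2, ALX1, ALX4, SNAI1, SNAI2 and TFAP2A. Of the 34580 rows in the expression table, 7 carried one of these symbols, and ALX4 and SNAI1 had no row of that name. Through the NCBI gene identifiers of RefSeq, 3 further rows belonged to the group, LOC100738855 for ALX4, LOC396583 for SNAI1 and LOC102162332 for SNAI2, which made 10 rows in all. The row named SNAI2 was listed at 0 in every library, so SNAI2 was read from LOC102162332, and each of the 9 genes was counted once. Total RNA was sequenced from tooth germs at embryonic days E40, E50 and E60, which in the mandibular deciduous molar Dm3 correspond to its cap stage, its early bell stage and its late bell stage. Each stage had 3 libraries from fetuses of timed pregnancies, with no experimental treatment described and no genotype or strain beyond miniature pig given. Whether libraries of a stage came from separate fetuses, litters or pooled germs was not given, so the p-values measure only the spread between these libraries.

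The mesenchyme of the jaw and of the tooth papilla descends from cranial neural crest cells, which leave the dorsal neural tube, lose epithelial contacts and migrate into the pharyngeal arches. SNAI1 and SNAI2 are zinc finger repressors of epithelial genes that are active when crest cells detach, and TFAP2A is an AP-2 factor needed both by crest cells and by the surface ectoderm. TWIST1 and TWIST2 are basic helix-loop-helix (bHLH) factors that keep mesenchyme undifferentiated, while PRRX1, PRRX2, ALX1 and ALX4 are paired-type homeobox factors that pattern the face, jaw and skull.

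Expression was deposited as FPKM, fragments per kilobase of exon and scaled to the mapped fragments of a library, in which levels of different genes may be compared because they are per length. Whole reads recovered from the steps of these values gave a depth of 938527 to 1323530 reads at E40 and 14362235 to 16674750 at E50, and of 16124836, 1380822 and 1760356 in the E60 libraries, numbered 1, 2 and 3. The libraries thus formed a set of 4 with higher depth (E50 and E60 library 1) and a set of 5 with lower depth (E40 and E60 libraries 2 and 3). Over 19618 genes the Pearson r between libraries, given as a description across genes of log2 values, was 0.74 to 0.98 within the sets and 0.30 to 0.61 between them. From E40 to E50 the stage and the set cannot be told apart, and E60 library 1 stood apart from its stage, so each comparison is given with all 9 libraries and with the 8 that leave it out. This library did carry the late bell markers. The summed level of the ameloblast genes AMBN and ENAM was 11300.5, 2394 and 5698 FPKM in E60 libraries 1, 2 and 3 and 3.01 to 7.69 FPKM in the earlier libraries, and that of the odontoblast genes DSPP and DMP1 was 449, 190.4 and 231 FPKM against 0.732 to 3.56 FPKM.

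TWIST1, the bHLH factor of cranial mesenchyme that is required for skull and jaw formation, was the most abundant of the 9 genes at E40, with 50.4, 63.0 and 86.3 FPKM. It had 46.6, 38.3 and 57.7 FPKM at E50, and 19.9, 11.3 and 26.9 FPKM at E60. All 3 E60 libraries lay below all libraries of the earlier stages, which overlapped each other. The means were 66.6 ± 18.2, 47.5 ± 9.71 and 19.3 ± 7.83 FPKM (SD, n = 3) at E40, E50 and E60.

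TWIST2, its close paralogue, was the scarcer of the pair in every library. Its levels were 0.750, 2.01 and 6.91 FPKM at E40, where they rested on 1, 3 and 13 reads. At E50 it had 13.1, 12.2 and 15.6 FPKM on 272 to 318 reads, and at E60 6.94, 4.08 and 6.00 FPKM on 159, 8 and 15 reads. The E50 libraries were above all others, and E60 overlapped E40 only through E40 library 3. An exact Poisson 95% interval put E40 library 1 between 0.0190 and 4.18 FPKM and E40 library 3 between 3.68 and 11.8 FPKM, intervals that overlap. Intervals and floors given here cover counting error only.

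PRRX1, a homeobox factor of limb and craniofacial mesenchyme, had 7.94, 9.21 and 11.8 FPKM at E40 and 18.3, 14.3 and 8.55 FPKM at E50. At E60 it had 3.46, 3.24 and 4.23 FPKM, on 75, 6 and 10 reads. E60 was the lowest stage with no overlap of the library values, at 3.64 ± 0.521 FPKM (SD, n = 3). The exact Poisson intervals of E60 libraries 2 and 3 were 1.19 to 7.04 and 2.03 to 7.78 FPKM. They were wider than the range of the E60 values, so no uniformity is read from the small SD. Both overlapped the interval of E40 library 1, 3.81 to 14.6 FPKM. The interval of E60 library 1, 2.72 to 4.34 FPKM, also overlapped it, but lay below that of E40 library 2, 4.90 to 15.7 FPKM. E40 and E50 overlapped, with means of 9.65 ± 1.98 and 13.7 ± 4.89 FPKM (SD, n = 3).

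PRRX2, which acts together with PRRX1 in the growth of the mandible, had 25.2, 17.1 and 17.9 FPKM at E40, 25.1, 19.7 and 25.7 FPKM at E50 and 14.2, 4.68 and 21.2 FPKM at E60. The stages overlapped, and the E60 libraries spread widest, at 13.4 ± 8.29 FPKM (SD, n = 3). The low E60 value was that of library 2, on 9 reads, with an exact Poisson 95% interval of 2.14 to 8.88 FPKM.

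ALX4 and ALX1, homeobox factors of the frontonasal region and the skull, were at or near the limit of detection. ALX4 had 1.79, 0 and 2.54 FPKM in the E40 libraries, on 2, 0 and 4 reads. In the deeper E50 libraries it had 0.0572, 0.101 and 0.117 FPKM on 1, 2 and 2 reads, and E60 held a single read, in library 1. ALX1 had no read at E40, 6, 1 and 0 reads at E50 and 1, 1 and 0 reads at E60, with 0.502 FPKM as its highest value. At E40 the floor of 3 reads, used here as the limit for a count of 0, would be 1.57 to 2.22 FPKM of ALX1, against 0.125 to 0.145 FPKM at E50, so a level of ALX1 such as that of E50 was not detectable in the E40 libraries. SNAI1 was listed at 0 in all 9 libraries. Some rows of this table stand at 0 for genes of the tissue, as the CDH1 row did in all 9 libraries, and no level of SNAI1 is drawn from its row.

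SNAI2, also known as Slug, had 15.9, 14.2 and 17.2 FPKM at E40 and 39.1, 48.9 and 45.2 FPKM at E50. In E60 libraries 1, 2 and 3 it had 45.8, 7.95 and 14.3 FPKM. E60 library 1 lay in the range of E50 and E60 libraries 2 and 3 near that of E40, so that its mean of 22.7 ± 20.3 FPKM (SD, n = 3) at E60 describes none of the 3 libraries. The libraries of higher depth held 39.1 to 48.9 FPKM and those of lower depth 7.95 to 17.2 FPKM, whatever the stage.

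TFAP2A, the AP-2 factor of crest and ectoderm, had 24.4, 17.7 and 17.8 FPKM at E40, 5.20, 3.71 and 3.45 FPKM at E50 and 2.61, 5.83 and 6.68 FPKM at E60. Every E40 library was above every later library, on 30 to 38 reads at E40 and 80 to 123 at E50. Its levels also separated the sets, with 2.61 to 5.20 FPKM in the libraries of higher depth and 5.83 to 24.4 FPKM in those of lower depth. For 20.1% of the 19618 genes tested all libraries of higher depth were below all of lower depth, and for 37.7% they were above, as for SNAI2 and TWIST2.

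**Figure D1:**
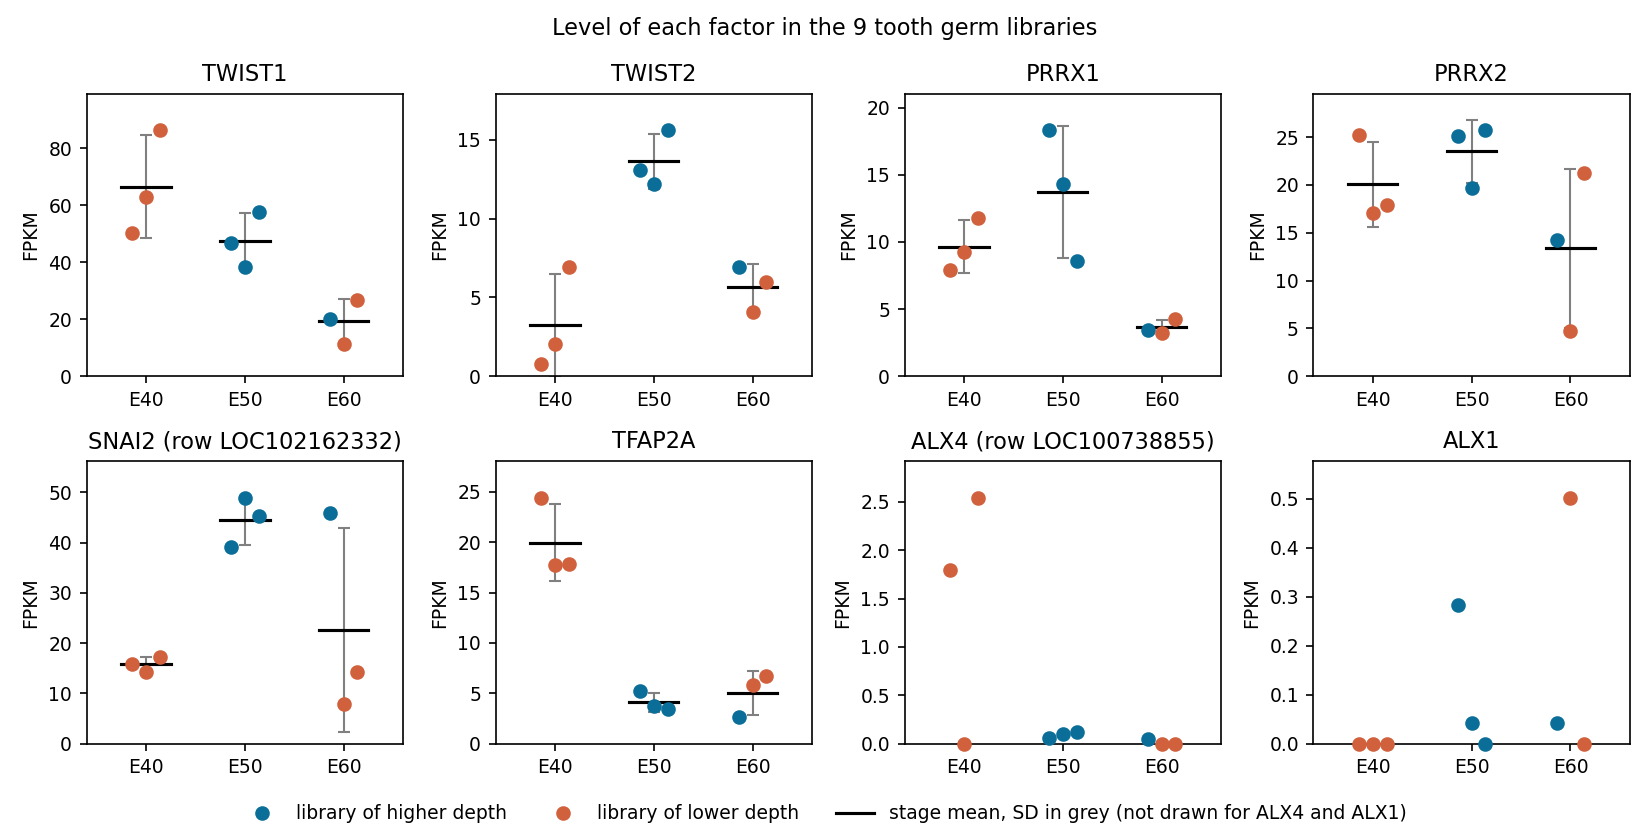
Level of 8 of the factors in FPKM (vertical axes, each with its own scale from 0) in the 3 libraries of E40, E50 and E60, with the stage mean and SD except for ALX4 and ALX1, and libraries of higher and lower depth in different colours. TWIST1 and PRRX1 were lowest in all 3 E60 libraries, TFAP2A was highest in the 3 E40 libraries, and SNAI2 at E60 was split between 45.8 FPKM in the library of higher depth and 7.95 and 14.3 FPKM in the others.

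The order of the levels differed between the stages and between the sets of libraries. At E40 TWIST1 (66.6 FPKM) stood above PRRX2 (20.1 FPKM) and TFAP2A (20.0 FPKM), whose libraries overlapped, and SNAI2 (15.7 FPKM), PRRX1 (9.65 FPKM) and TWIST2 (3.22 FPKM) followed without overlap between neighbours. At E50 TWIST1 (47.5 FPKM) and SNAI2 (44.4 FPKM) overlapped at the top. PRRX2 (23.5 FPKM) came next, then PRRX1 (13.7 FPKM) and TWIST2 (13.6 FPKM), which overlapped, and TFAP2A was below them at 4.12 FPKM. TFAP2A thus stood beside PRRX2 at E40 and below TWIST2 at E50. At E60 each neighbour in the order from SNAI2 to PRRX1 overlapped the next. By library, TFAP2A ranked 6 among the members in all libraries of higher depth, E60 library 1 included, and 2 to 4 in those of lower depth. SNAI2 ranked 1 or 2 in the libraries of higher depth and 2 to 4 in the others. Stage and set cannot be told apart in these shifts from E40 to E50.

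The comparison of E40 with E50 addressed the passage from cap to early bell. TWIST2 rose and TFAP2A fell, and the other members did not pass the test. A gene was called when limma, fitted on log2(FPKM + 0.1) of all 19618 genes tested, gave a Benjamini-Hochberg adjusted p under 0.05 with a change of 1 or more on the log2 scale. Of the 9 genes 7 were above the filter for low values, all but ALX1 and SNAI1, and entered the test. Over all 9 libraries 1 member was called higher and 1 lower, while 38.6% of all genes tested were called, 16.8% higher and 21.8% lower. That is 2 of 7 members, a share no larger than that of all genes. The libraries of TWIST2 and SNAI2 were higher at E50 without overlap, as for 45.2% of the genes tested, and those of TFAP2A lower, as for 27.8%.

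TWIST2 changed by 2.55 on the log2 scale (SE 0.69, limma, Benjamini-Hochberg adjusted p = 0.0219). Its call was lost without any single one of 5 libraries, E40 libraries 1 and 2 and the 3 E50 libraries, where the same test gave an adjusted p of 0.0619, 0.0627, 0.0635, 0.0702 and 0.0809, and without E40 library 1 the change was 1.82. TFAP2A changed by -2.25 (SE 0.44, limma, Benjamini-Hochberg adjusted p = 0.0124). Its call was lost without E40 library 1, E50 library 2 or E50 library 3, with changes of -2.10, -2.19 and -2.14 and adjusted p of 0.0501, 0.0528 and 0.0541 by the same test. In these 3 fits 209, 58 and 58 of all genes were called, in place of 7580.

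Over the 8 libraries 2 members were called higher and 1 lower, against 30.5% and 24.2% of 19493 genes. The added call was SNAI2, at 1.49 (SE 0.26, limma, Benjamini-Hochberg adjusted p = 0.00121), which over all 9 libraries had the same change with an adjusted p of 0.0601 by that test. TWIST1 changed by -0.47 (SE 0.40, adjusted p = 0.349), PRRX1 by 0.45 (SE 0.40, adjusted p = 0.362) and PRRX2 by 0.24 (SE 0.52, adjusted p = 0.715) over all 9 libraries, by limma with Benjamini-Hochberg adjustment.

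The direction of the smaller changes depended on the scaling between libraries. Over all genes tested the median change was 0.55 with the values as deposited and -0.10 after median-ratio scaling, which divides each library by its median ratio to the geometric mean of all. With that scaling PRRX1 and PRRX2 turned to -0.22 and -0.43, and TWIST1 was called lower, as were 24.9% of all genes, at -1.15 (SE 0.28, limma, Benjamini-Hochberg adjusted p = 0.0214). SNAI2 changed by 0.82 with it and was under the fold limit, while TWIST2 and TFAP2A stayed called at 1.89 and -2.92, with 12.0% of all genes called higher.

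ALX4, with at most 4 reads in a library, entered the test only through 2 E40 libraries, the only ones in which it reached 1 FPKM. It was not called from E40 to E50 over all 9 libraries (limma, Benjamini-Hochberg adjusted p = 0.194). Limma-voom on the recovered reads called it lower, like 24.5% of all genes (Benjamini-Hochberg adjusted p = 0.0262), and so did limma without E40 library 2, at -3.56 (adjusted p = 0.0456). No direction is read from these calls, since the filter admitted the gene through E40 alone.

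The comparison of E50 with E60 addressed the passage from early to late bell. Over all 9 libraries 0 of the 7 members tested were called by limma, and 3 had an unadjusted p under 0.05, as had 30.2% of all genes. Limma-voom on the recovered reads called 0 of them and 0.311% of all genes. Of all genes tested limma called 0.0714%. TWIST1, PRRX1 and TWIST2 were lower at E60 without overlap of the libraries, as were 21.6% of all genes. ALX4, with 1, 0 and 0 reads at E60, could not be compared at this depth. TWIST1 changed by -1.36 (SE 0.40), PRRX1 by -1.82 (SE 0.40) and SNAI2 by -1.35 (SE 0.56), with an adjusted p of 0.164 for each by limma with Benjamini-Hochberg adjustment. The change of TWIST2 was -1.27 (SE 0.69, adjusted p = 0.201) and that of PRRX2 -1.05 (SE 0.52, adjusted p = 0.181) by the same test.

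Over the 8 libraries without E60 library 1, 3 members were called lower from E50 to E60, while 59.1% of 19493 genes were called and 39.1% were called lower. They were SNAI2 (-2.04, SE 0.29, adjusted p = 0.000470), PRRX1 (-1.79, SE 0.36, adjusted p = 0.00306) and TWIST1 (-1.42, SE 0.40, adjusted p = 0.0148) by limma with Benjamini-Hochberg adjustment. The median change of all genes was -0.94 there. After median-ratio scaling, where it was 0.08, none of these 3 reached both limits, at -0.96, -0.72 and -0.34, and TFAP2A was called higher, as were 25.5% of all genes, at 1.68 (SE 0.32, limma, Benjamini-Hochberg adjusted p = 0.00321). In these 8 libraries E50 is the whole set of higher depth, and the stage and the set cannot be told apart.

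**Figure D2:**
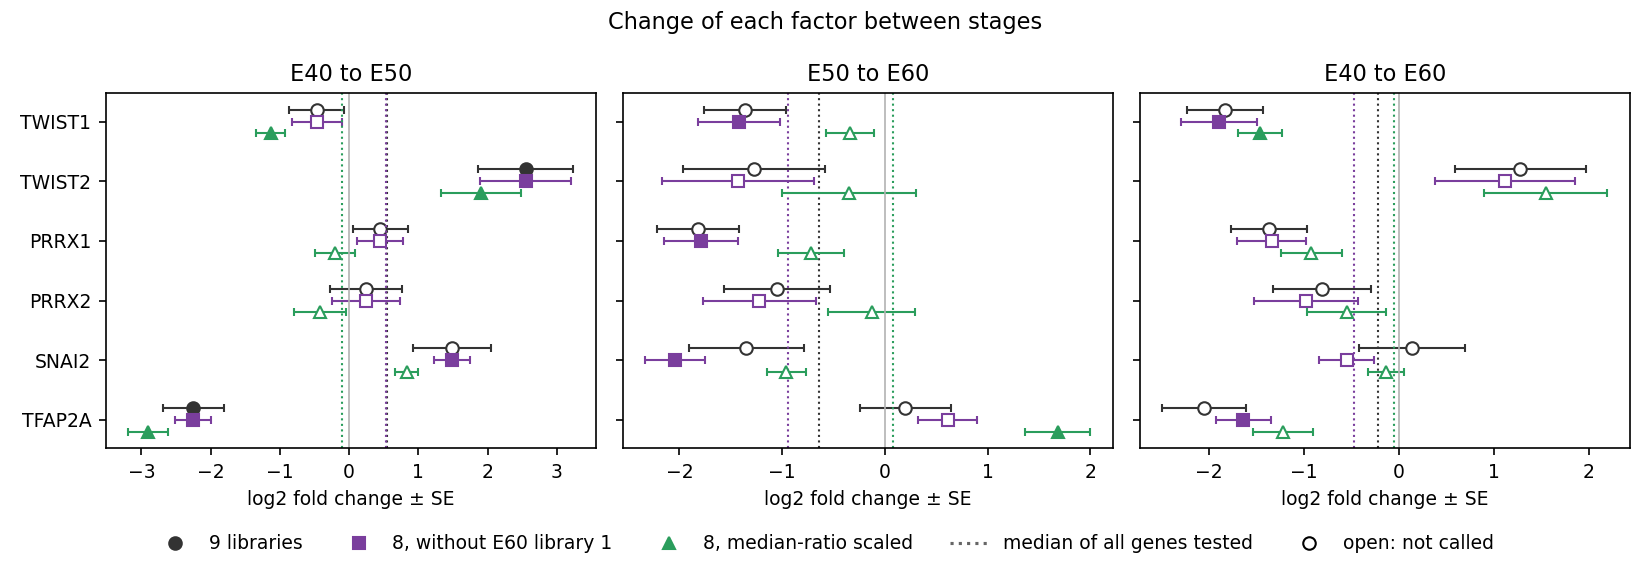
Log2 fold change with its standard error (horizontal axes) of 6 factors between the stages, by limma on log2(FPKM + 0.1) over all 9 libraries, over the 8 without E60 library 1, and over these 8 after median-ratio scaling. Filled symbols passed both limits, open ones did not, and dotted lines give the median of all genes tested, which for E50 to E60 moved from -0.64 and -0.94 to 0.08. TFAP2A from E40 to E50 and TWIST2 from E40 to E50 were called in all 3 fits.

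The comparison of E40 with E60 addressed the whole interval from cap to late bell. E60 had libraries in both sets, while E40 lay wholly in the set of lower depth. Over all 9 libraries 0 of 7 members were called by limma with Benjamini-Hochberg adjustment, against 1.80% of all genes, while 4 had an unadjusted p under 0.05, as had 17.9% of all genes. The libraries of TWIST1, PRRX1 and TFAP2A were lower at E60 without overlap, like those of 19.0% of the genes tested. TWIST1 changed by -1.83 (SE 0.40, adjusted p = 0.0590) and TFAP2A by -2.05 (SE 0.44, adjusted p = 0.0558) by that test. Limma-voom called 1 member lower, TFAP2A, at -2.27, against 1.23% of all genes, with an adjusted p of 0.0466 after Benjamini-Hochberg adjustment.

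Without E60 library 1, TWIST1 fell by 1.89 on the log2 scale (SE 0.40, adjusted p = 0.0329) and TFAP2A fell by 1.64 (SE 0.29, adjusted p = 0.0175) in limma with Benjamini-Hochberg adjustment. These 2 of 7 members stood against 4.68% of all genes called lower. Without E60 library 2 the same 2 members were called, with adjusted p of 0.0370 and 0.0331 by the same test, and 3.75% of all genes were called lower. After median-ratio scaling of the 8 libraries TWIST1 stayed called (-1.46, SE 0.23, adjusted p = 0.0113) with 2.39% of all genes called lower, and TFAP2A did not (-1.22, SE 0.32, adjusted p = 0.0758), by limma with Benjamini-Hochberg adjustment. In a fit of only the 5 libraries of lower depth neither passed, with adjusted p of 0.0961 for TWIST1 and 0.0727 for TFAP2A by that test, and 1.30% of 18426 genes were called.

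The other members did not pass in this comparison. PRRX1 changed by -1.37 (SE 0.40, adjusted p = 0.145), PRRX2 by -0.81 (SE 0.52, adjusted p = 0.421), TWIST2 by 1.28 (SE 0.69, adjusted p = 0.342) and SNAI2 by 0.14 (SE 0.56, adjusted p = 0.923) over all 9 libraries, by limma with Benjamini-Hochberg adjustment. Without E60 library 1 the change of SNAI2 was -0.55, so its direction rested on that library. The change of PRRX2 was -0.18 without E60 library 2, and that of TWIST2 was 0.55 without E40 library 1 and 2.07 without E40 library 3.

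Because depth and stage were entangled, E60 was also set against the earlier stage of the same depth. E60 library 1 was set against the 3 E50 libraries, and the other E60 libraries against the 3 E40 libraries, as differences of mean log2(FPKM + 0.1) with no test. TWIST1, PRRX1 and TFAP2A were lower at E60 in both sets without overlap of the libraries, as were 12.4% of the 19618 genes, and no member was higher in both, where 3.29% of the genes were. TWIST1 differed by -1.23 in the set of higher depth and by -1.89 in that of lower depth, where the medians of all genes were -0.07 and -0.46. For PRRX1 the differences were -1.89 and -1.34, and for TFAP2A they were -0.62 and -1.64.

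The remaining members did not differ in the same way in both sets. PRRX2 was lower by 0.71 and 0.98 on the log2 scale, but E60 library 3, at 21.2 FPKM, lay inside the E40 range. SNAI2 differed by 0.05 in the set of higher depth and by -0.55 in the other, with overlap in both. TWIST2 was lower in E60 library 1 than at E50, by 0.95, whereas in E60 libraries 2 and 3 it overlapped E40 with a difference of 1.12.

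**Figure D3:**
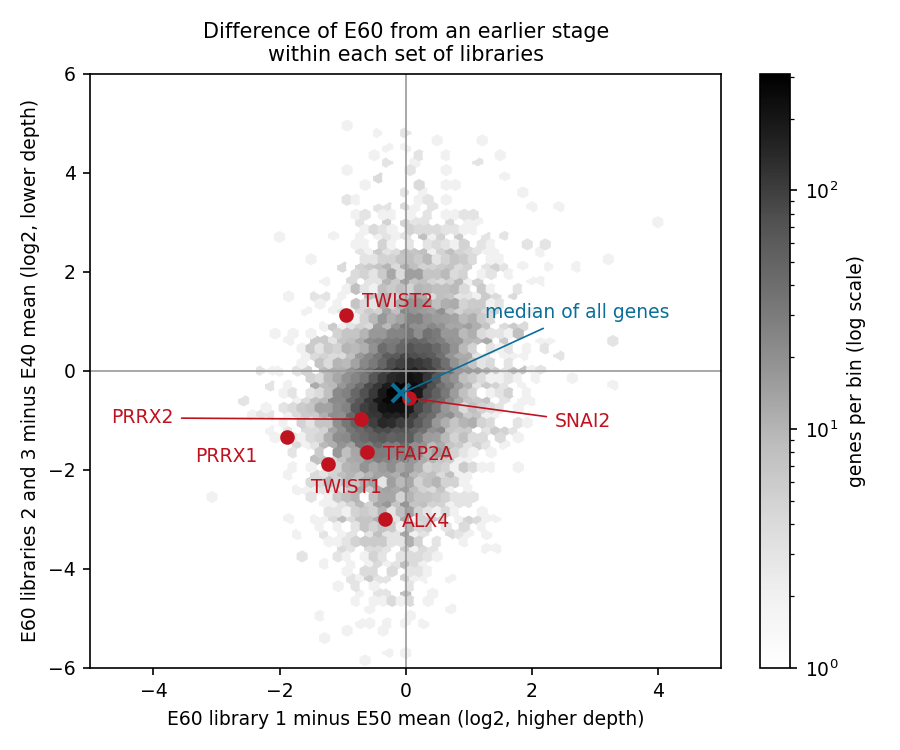
Difference in mean log2(FPKM + 0.1) between E60 library 1 and E50 (horizontal axis, libraries of higher depth) and between E60 libraries 2 and 3 and E40 (vertical axis, libraries of lower depth) for all genes tested (grey, genes per bin on a log scale) and for 7 of the factors (points). TWIST1, PRRX1 and TFAP2A lay below 0 on both axes, at -1.23 and -1.89, -1.89 and -1.34, and -0.62 and -1.64, while SNAI2 lay close to the median of all genes.

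A ratio of paralogues within a library does not depend on the scaling between libraries. The ratio of TWIST1 to TWIST2, per length, was 67.3, 31.4 and 12.5 in the E40 libraries, 3.57, 3.16 and 3.70 at E50 and 2.86, 2.76 and 4.48 at E60. Every E40 library had a higher ratio than every later library, of either depth. On the log2 scale the ratio was 4.81 ± 1.14, 1.79 ± 0.12 and 1.70 ± 0.39 (SD, n = 3), and the stages differed with p = 0.0286 in an exact permutation test over all 1680 assignments of the libraries, which is two-sided by construction. Adjusted by Benjamini-Hochberg over the 2 ratios tested, this exact permutation p was 0.0571 and did not pass. Within the 5 libraries of lower depth, where E60 libraries 2 and 3 had a mean of 1.79, the difference from E40 was -3.01, with an exact permutation p of 0.10, the smallest that 3 against 2 libraries allow. Summed over libraries, the ratio of reads per length was 19.0 at E40, with an exact 95% interval of 11.7 to 33.1 on 337 and 17 reads, and 3.88 in E60 libraries 2 and 3, with an interval of 2.44 to 6.43.

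The ratio of PRRX1 to PRRX2 was below 1 in all 9 libraries. It was 0.315, 0.540 and 0.661 at E40, 0.730, 0.724 and 0.333 at E50 and 0.243, 0.692 and 0.200 at E60. The stages overlapped (-1.04 ± 0.55, -0.83 ± 0.64 and -1.61 ± 0.96 on the log2 scale, SD, n = 3), with an exact permutation p of 0.407, also 0.407 after adjustment. Summed reads gave 0.502 at E40 and 0.591 at E50, against 0.243 in E60 library 1 and 0.272 in the other E60 libraries together. No ratio of SNAI1 to SNAI2 could be formed.

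**Figure D4:**
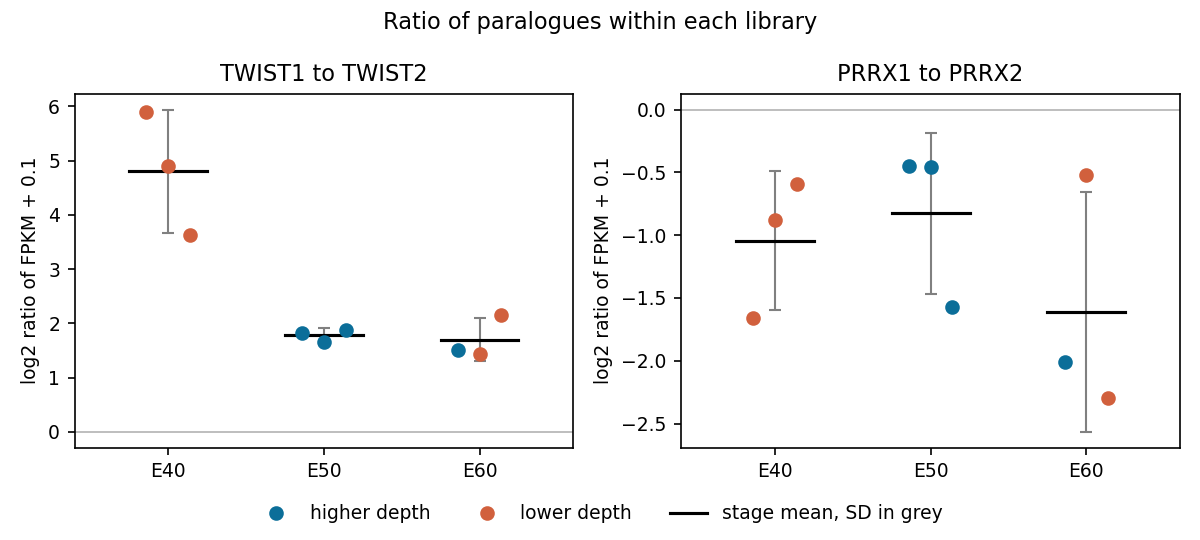
Log2 ratio of TWIST1 to TWIST2 and of PRRX1 to PRRX2 (vertical axes, from FPKM + 0.1) in the 3 libraries of each stage, with mean and SD and the depth of the libraries by colour. The TWIST ratio was 4.81 ± 1.14 at E40 and 1.79 ± 0.12 and 1.70 ± 0.39 later, while the PRRX ratio overlapped between the stages.

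Genes that act with these factors were read from 4 lists, which together held 58 genes, 51 with a row and 39 tested. Over all 9 libraries 11 were called higher and 4 lower from E40 to E50, beside 16.8% and 21.8% of all genes. From E50 to E60 the count was 0, beside 0.0714% of all genes. From E40 to E60 it was 1 lower, beside 1.80% of all genes called in either direction. Of the 4 called lower from E40 to E50, 3 entered the test only through E40, and no direction is read from them. The median changes over the 39 genes were 0.93, -1.19 and -0.36, beside 0.55, -0.64 and -0.22 for all genes tested. Without E60 library 1 the calls from E40 to E50 were 19 higher and 5 lower, beside 30.5% and 24.2% of all genes. From E50 to E60 they were 3 higher and 24 lower, where 59.1% of all genes were called and 39.1% were called lower. From E40 to E60 they were 0 higher and 4 lower, beside 4.68% of all genes called lower. After median-ratio scaling 5 were called higher and 5 lower from E40 to E50 over all 9 libraries, beside 12.0% and 24.9% of all genes. Over the 8 libraries that scaling gave 7 higher and 5 lower from E40 to E50, and 4 higher and 11 lower from E50 to E60. In these 2 comparisons 8471 and 7405 of 19493 genes were called in either direction. The 15 calls from E40 to E50 became 0 without E40 library 1, E50 library 2 or E50 library 3, 2 without E50 library 1, 3 without E40 library 2 and 8 without E40 library 3. In the same order 209, 58, 58, 3431, 3285 and 5282 of all genes were called, in place of 7580.

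The bHLH list held the dimer partners of TWIST and the ID proteins that sequester them. Of 9 genes 7 were tested, and 4 rose from E40 to E50, with a median change of 1.83 over the list. Of all genes tested 16.8% were called higher in this comparison. TCF12, an E protein that dimerizes with TWIST1, rose from 19.5, 24.4 and 33.9 FPKM to 94.1, 123 and 114 FPKM, by 2.11 on the log2 scale (limma, Benjamini-Hochberg adjusted p = 0.0237). The dimerization inhibitors ID1 and ID4 rose by 1.93 and 1.60 (limma, Benjamini-Hochberg adjusted p = 0.0342 and 0.0184). HAND2, which patterns the lower jaw, had 1 read in each E40 library and 59, 61 and 63 at E50. ID3 was listed at 0. After median-ratio scaling TCF12 and ID1 stayed called at 1.44 and 1.26, while ID4, at 0.92, and HAND2, at 1.33 (adjusted p = 0.0726 by the same test), were no longer called. In E60 libraries 1, 2 and 3 TCF12 had 92.0, 16.6 and 23.6 FPKM, split between the sets as SNAI2 was.

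Of 21 other homeobox, forkhead and related factors of the jaw mesenchyme, 14 were tested. From E40 to E50 4 were called higher and 4 lower, beside 16.8% and 21.8% of all genes, with a median of 0.36. BARX1, LHX8 and OSR2, factors of the molar field, the jaw and the palate, rose by 1.48, 1.45 and 1.57 (limma, Benjamini-Hochberg adjusted p = 0.0155, 0.0489 and 0.0386). After median-ratio scaling BARX1, LHX8 and OSR2 were no longer called. RUNX2, the master factor of bone-forming cells, fell by 2.58 (limma, Benjamini-Hochberg adjusted p = 0.0133) from 38.0, 31.9 and 27.9 FPKM to 5.06, 5.29 and 5.67 FPKM. In E60 libraries 1, 2 and 3 RUNX2 had 3.55, 20.3 and 11.7 FPKM, so that its levels, like those of TFAP2A, were lower in all libraries of higher depth. OSR1 and MEIS2 had 2 and 3 to 5 reads in the E40 libraries and entered the test only through that stage.

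MEIS1, a homeobox cofactor of HOX and PBX proteins, was the gene of these lists called from E40 to E60 over all 9 libraries. It had 23.8, 27.1 and 37.8 FPKM at E40, 10.7, 10.2 and 11.5 FPKM at E50, and 5.25, 1.67 and 6.57 FPKM at E60. Its change from E40 to E60 was -2.87 (limma, Benjamini-Hochberg adjusted p = 0.0264), -3.08 without E60 library 1 and -2.77 after median-ratio scaling, called each time. It was not called when any single E40 or E50 library was left out, with changes of -2.68 to -3.01 and adjusted p of 0.0724 to 0.0907 by the same test. As for TWIST1, each E60 library was below all earlier ones, and for MEIS1 the E50 libraries were also below those of E40.

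Of 11 other neural crest specifiers 10 had a row and 5 were tested. SOX9, which is active in crest and cartilage precursors, rose from E40 to E50 by 1.22 (limma, Benjamini-Hochberg adjusted p = 0.0281), and its change was 0.56 after median-ratio scaling. TFAP2B, a paralogue of TFAP2A, had 6.48, 6.84 and 9.61 FPKM at E40, 9.17, 8.89 and 7.28 FPKM at E50 and 2.78, 0.801 and 1.89 FPKM at E60. TFAP2C had 2.80 to 4.68, 7.26 to 8.40 and 1.12 to 3.15 FPKM. Of these AP-2 genes, only TFAP2A was higher in every E40 library than in all later libraries, whereas E50 held the highest levels of TFAP2C. Without E60 library 1 TFAP2B fell from E40 to E60 by 2.51 (limma, Benjamini-Hochberg adjusted p = 0.0114) and over all 9 libraries its change was -2.14 (adjusted p = 0.0713 by the same test). PAX3, PAX7 and TFAP2E were listed at 0, SOX10 had at most 2 reads and ZIC1 at most 6 reads in any library, and FOXD3 had no row. SOX10, which marks migrating crest cells and their glial branch, was thus near 0 in these germs, while TWIST1, PRRX2 and SNAI2 were not.

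Of 17 factors and readouts of epithelial-mesenchymal transition, the process in which SNAI and TWIST proteins act, 13 were tested and 2 rose from E40 to E50, CLDN1, a tight junction protein, by 1.93 and FN1, a matrix protein, by 1.35 (limma, Benjamini-Hochberg adjusted p = 0.0330 and 0.0470). The median change of the list was 1.06, and 16.8% of all genes were called higher. Without E60 library 1, 7 were called higher from E40 to E50, beside 30.5% of all genes, and 11 lower from E50 to E60, beside 39.1%. After median-ratio scaling of these libraries 2 stayed higher, CLDN1 and EPCAM, and 4 lower, CLDN1, EPCAM, OCLN and CDH2. In the 2 comparisons 8471 and 7405 of 19493 genes were then called in either direction. EPCAM, an epithelial adhesion protein, changed over these 8 libraries by 1.82 from E40 to E50 and by -2.20 from E50 to E60. The adjusted p was 0.00250 and 0.00180 by limma with Benjamini-Hochberg adjustment. VIM, the intermediate filament of mesenchyme, changed by 1.31 and -1.65 (adjusted p = 0.0284 and 0.0170 by the same test). With median-ratio scaling of the 8 libraries EPCAM changed by 1.16 and -1.11, and VIM, at 0.65 and -0.56, was not called. In E60 libraries 1, 2 and 3 EPCAM had 67.6, 8.96 and 18.6 FPKM. It had 10.9 to 22.5 FPKM at E40 and 51.6 to 67.3 FPKM at E50. Over all 9 libraries EPCAM and VIM changed by -1.40 and -1.24 from E50 to E60 (adjusted p = 0.170 and 0.165 by limma). Stage and set cannot be told apart in the changes over the 8 libraries.

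Whole germs hold epithelium, mesenchyme and neighbouring tissue, and in such bulk samples fewer cells of a type and less RNA per cell cannot be told apart. All 10 mesenchyme markers were present. Their summed levels were 1577 to 2426 FPKM at E40, 6407 to 6895 FPKM at E50 and, in the order of the libraries, 7901, 1617 and 3314 FPKM at E60. These moved with the set of libraries, as SNAI2 did. Of 9 epithelial markers 8 had a row and 7 were above 0, with sums of 3545 to 5108 FPKM at E40, 2509 to 3542 FPKM at E50 and 3447, 1375 and 4153 FPKM at E60. E60 library 2 had the lowest epithelial sum of all libraries and the lowest mesenchymal sum of its stage, and it held the lowest values of TWIST1, PRRX1, PRRX2 and SNAI2. Skeletal muscle markers, 7 of 8 with a row and above 0, summed to 83.0 to 114 FPKM at E40 and to 7.20 to 14.7 FPKM in the later libraries, higher at E40 as TFAP2A was. Markers of Schwann cells and neurons summed to 2.11 to 7.66 FPKM. The part of any of these tissues in the changes of the factors was not tested.

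The genes whose profile over the 9 libraries was most like that of a factor were found by the root mean square difference of centred log2(FPKM + 0.1) values among 7548 genes with a mean of at least 5 FPKM. HES6 was nearest to TWIST1, with a difference of 0.12 on the log2 scale, where the median over all these genes was 1.01. HES6, a HES family bHLH factor, had 13.8, 17.8 and 21.2 FPKM at E40, 14.9, 9.83 and 16.6 FPKM at E50 and 6.02, 3.13 and 8.58 FPKM at E60. FAM213B followed at 0.21. For PRRX1 the nearest were DUSP4, a MAP kinase phosphatase, and TRIL, both at 0.28 with a median of 0.92. DUSP4 had 2.86, 2.81 and 2.98 FPKM at E60 and 5.83, 7.16 and 8.79 FPKM at E40, and like PRRX1 it was lowest at E60.

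TFAP2A was nearest to LRIG1, a negative regulator of receptor tyrosine kinases, and to GLYCTK, at 0.21 and 0.23, with a median of 1.60. LRIG1 had 12.8 to 17.9 FPKM at E40, 2.30 to 2.80 FPKM at E50 and 1.72, 5.18 and 4.41 FPKM at E60. SNAI2 had the closest neighbours, NARS at 0.08 and VBP1 at 0.10, an asparaginyl-tRNA synthetase and a prefoldin subunit, with a median of 0.55. The neighbours of PRRX2 were ZNRF1 at 0.20 and GSTP1 at 0.21, with a median of 0.78, and those of TWIST2 were VPS25 at 0.35 and HIGD2A at 0.47, with a median of 1.05. ALX4, with 0 to 4 reads, had no close neighbour, the nearest being TRPT1 and DES at 1.21.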

How the data were processed

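Per the labels and the study's methods, rRNA-depleted, directional paired-end libraries were aligned with TopHat to the pig genome (Sscrofa10.2 in the submitters' processing notes), and the authors deposited FPKM values for 34580 rows in 9 libraries, with no further scaling stated. The version of the gene annotation was not given in the sources used here. The study's own tests were count tests, which were not the main test here because the deposited values are FPKM. Rows were matched by symbol and by the gene identifiers of RefSeq (Sscrofa11.1), whose coordinates were not used. Whole reads were recovered from the steps of the FPKM values (tolerance 0.005 reads) for all 28963 rows above 0, and the recovered totals multiplied by the value of 1 read differed between libraries by at most 0.0553%.

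The test was that of limma 3.58.1 (R 4.3.3) with a mean-variance trend on log2(FPKM + 0.1), for every gene that reached an FPKM of 1 in 2 or more libraries, with 1 coefficient per stage and Benjamini-Hochberg adjustment over all genes tested. This scale understates the change of low genes. Scripts were tested on simulated data. Paralogue ratios were compared by exact permutation over libraries. Every member was named, genes of the related lists when called, up to the 4 with the largest change per list and comparison, and the 2 genes most like each member. The members and lists were chosen with earlier results of these data known. The replicate numbers did not pair the libraries. The search for motifs in promoters and the SNAI1 to SNAI2 ratio were not run. Summed levels of the other marker lists over the 9 libraries were 26.0 to 88.2 FPKM for endothelium, 8.67 to 26.3 FPKM for cartilage, 40.0 to 107 FPKM for bone, 96.3 to 1028 FPKM for red blood cells and 0.877 to 2.68 FPKM for immune cells. Alternatives were pseudocounts of 1 and 0.01, no filter and a filter of 3 libraries, median-ratio and upper-quartile scaling, fits of only the compared stages, a replicate block, leaving out each library, and limma-voom on the recovered reads. Fits that joined median-ratio scaling with the loss of E60 library 1, fits of the 5 libraries of lower depth and a reading of symbol rows alone were added after seeing the data. Tables and figures were made in Python 3.11.15 with scipy 1.17.1, pandas 2.3.3, matplotlib 3.10.9 and numpy 2.4.6. Values of some genes counted in the lists are not reported here.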

Additional observations from a re-analysis of the deposited data

How the results depend on the processing

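Depth limited what could be seen most at E40 and in E60 libraries 2 and 3, where a single read of these genes was worth 0.352 to 0.894 FPKM. The number of members called from E40 to E50 was 2 and stayed within 1.5 times of that under the other pseudocounts, filters, scalings and limma-voom, and was 0 to 3 when single libraries were left out, with 0 without E40 library 1, E50 library 2 or E50 library 3 and 1 without E50 library 1, fits in which the calls over all genes were 209, 58, 58 and 3431 in place of 7580. From E50 to E60 it was 0, and 0 to 3 with single libraries left out, the 3 without E60 library 1, which became 1 with median-ratio scaling. From E40 to E60 it was 0, and became 2 with a pseudocount of 1, 1 with median-ratio scaling, 1 with upper-quartile scaling, 1 by limma-voom, 0 to 2 with single libraries left out, and 1 without E60 library 1 after median-ratio scaling. The direction from E40 to E50 turned for PRRX1 with median-ratio scaling of 9 or 8 libraries (-0.22 and -0.20) and for PRRX2 with median-ratio scaling (-0.43 and -0.42) and upper-quartile scaling (-0.11). From E50 to E60 it turned for ALX4 under limma-voom (0.30) and for TFAP2A, whose change was -0.05 without E60 library 3 and -0.05 to 0.61 over the single libraries left out. SNAI2 from E40 to E60 ranged from -0.55, without E60 library 1, to 0.70 with single libraries left out, and was -0.13 with median-ratio scaling of the same 8 libraries, and -0.55 and -0.07 in the 5 libraries of lower depth without and with that scaling. The TWIST1 to TWIST2 log2 ratio changed by -3.02 from E40 to E50 and -3.11 from E40 to E60. Single libraries left out gave -3.61 to -2.48 and -3.70 to -2.57, with an exact permutation p of 0.050 without E60 library 1 or 2. The PRRX1 to PRRX2 change from E40 to E50, 0.21, ranged from -0.09, without E40 library 1, to 0.59. The cause of these shifts was not tested. With the replicate block 2, 0 and 0 members were called, as without it, and 7 in place of 15 related factors from E40 to E50 and 0 in place of 1 from E40 to E60. Over all genes the block gave 5104 calls in place of 7580 from E40 to E50 and 82 in place of 354 from E40 to E60. The numbers did not pair the libraries, since deviations of same-numbered libraries had r of -0.52 to 0.11 over 9 pairs and 0 of 9 libraries correlated best with its own number. The related factors called from E40 to E50 ranged from 0 to 24 with single libraries left out, while the calls over all genes ranged from 58 to 10650. ALX4 had no value where it failed the filter. Rows by symbol alone left SNAI2 and ALX4 without a test.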
